A study of Mus musculus with 6 samples.

Results

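Capillary endothelial and angiogenic genes were examined in hind limb muscle of mice that lack Baf155 in muscle fibers. The 38 genes were a list set by their known roles in endothelial cells and vessel growth, and they were picked from 20632 genes in the table of all genes. All 38 had enough counts to be tested, among 12116 genes tested in all. The RNA came from whole hind limb muscles (tibialis anterior, extensor digitorum longus, gastrocnemius, soleus and quadriceps) of unexercised male C57BL/6 mice aged 3 months. Control mice carried floxed *Baf155* alleles without Cre (Baf155 f/f, labelled wild type, here Baf155WT, n = 3 mice), and the knockout mice carried the same floxed alleles with *MCK*-Cre (labelled Baf155 -/-, here Baf155ΔMF, n = 3 mice). *MCK*-Cre drives recombination from the muscle creatine kinase promoter, which is active in skeletal and cardiac muscle fibers, so the label Baf155 -/- does not extend to the endothelial cells of these muscles. Each library was from 1 mouse. The question of the comparison was how gene expression in resting muscle differed once Baf155, a core subunit of the SWI/SNF chromatin remodeling complex, was removed from the fibers.

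Skeletal muscle fibers are each bordered by capillaries, whose endothelial cells deliver oxygen, lipids and glucose. Vascular endothelial growth factors, made in large part by the fibers, act on the endothelial receptors *Flt1* (VEGFR1), *Kdr* (VEGFR2) and *Flt4* (VEGFR3). Angiopoietins act on the receptor *Tek* (Tie2) to stabilize or loosen vessels, the Notch ligand *Dll4* restrains sprouting from neighboring cells through *Notch1*, and apelin signals through *Aplnr*. The list was ordered here as 11 receptors and coreceptors, 8 ligands and secreted factors, 12 junction and surface proteins, 4 transcription factors and 3 other effectors.

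The libraries held 8426022 to 12469335 counts each, and a member gene held 17 to 3381 counts in a mouse. Levels are given as CPM, counts normalized to library size after TMM scaling, a correction for libraries dominated by a few genes. A count of 3 corresponded to 0.23 to 0.351 CPM, which covers counting error only. *Smarcc1*, which encodes Baf155 (chromosome 9, 110117708 to 110240178, GRCm38), was at 23.4, 19.5 and 17.0 CPM in the Baf155WT mice and at 7.05, 6.54 and 7.72 CPM in the Baf155ΔMF mice. The genotypes did not overlap, and the log2 fold change was -1.49 (SE 0.15, adjusted p = 0.00907, edgeR quasi-likelihood test), with an adjusted p of 0.0533 to 0.0678 when any of 3 mice was left out (the first MS15 Baf155WT mouse or either MS13 Baf155ΔMF mouse). The sample titles carry a prefix, MS13, MS14 or MS15, whose meaning the labels do not give. MS13 held 1 Baf155WT and 2 Baf155ΔMF mice, MS15 held the other 2 Baf155WT mice and MS14 held the third Baf155ΔMF mouse, so beyond the MS13 mice genotype and prefix cannot be told apart. The MS13 Baf155WT mouse stood apart from both MS15 Baf155WT mice in many of these genes, and the members described mouse by mouse are therefore also given within MS13, as the mean of the 2 Baf155ΔMF mice minus the 1 Baf155WT mouse on the log2 scale.

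No member passed the test. The adjusted p was under 0.05 in 0 of 38 members by edgeR, where 3 of 12116 genes passed (0.0248%), and in 0 of 38 members by limma-voom. DESeq2 called 1 member, *Thbs1*. At an unadjusted p under 0.05 there were 7 of 38 members by edgeR (7.95% of all genes tested), with 6 higher in Baf155ΔMF muscle (3.35% of all genes) and 1 lower (4.6%). The same 7 members were those whose genotypes did not overlap (10.8% of all genes, 5.2% higher and 5.57% lower): the receptors *Kdr* and *Aplnr*, the ligand *Dll4*, the secreted factor *Egfl7*, the junction protein *Pecam1* and the transcription factor *Erg* on the higher side, and the angiogenesis inhibitor *Thbs1* on the lower side. The median log2 fold change of the 38 members was 0.21 (range -0.68 to 0.71), against -0.00095 for all genes tested, and it was above 0 in 33 of 38 members (49.8% of all genes). In whole muscle, a change in the number of endothelial cells and a change in RNA per cell cannot be told apart. The 95% interval included 0 in 31 members and stayed within a 1.5-fold change either way in 17 members (44.7%, against 69.3% of all genes), and it included a 1.5-fold rise in 18 members (47.4%, against 15.6% of all genes).

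**Figure D1:**
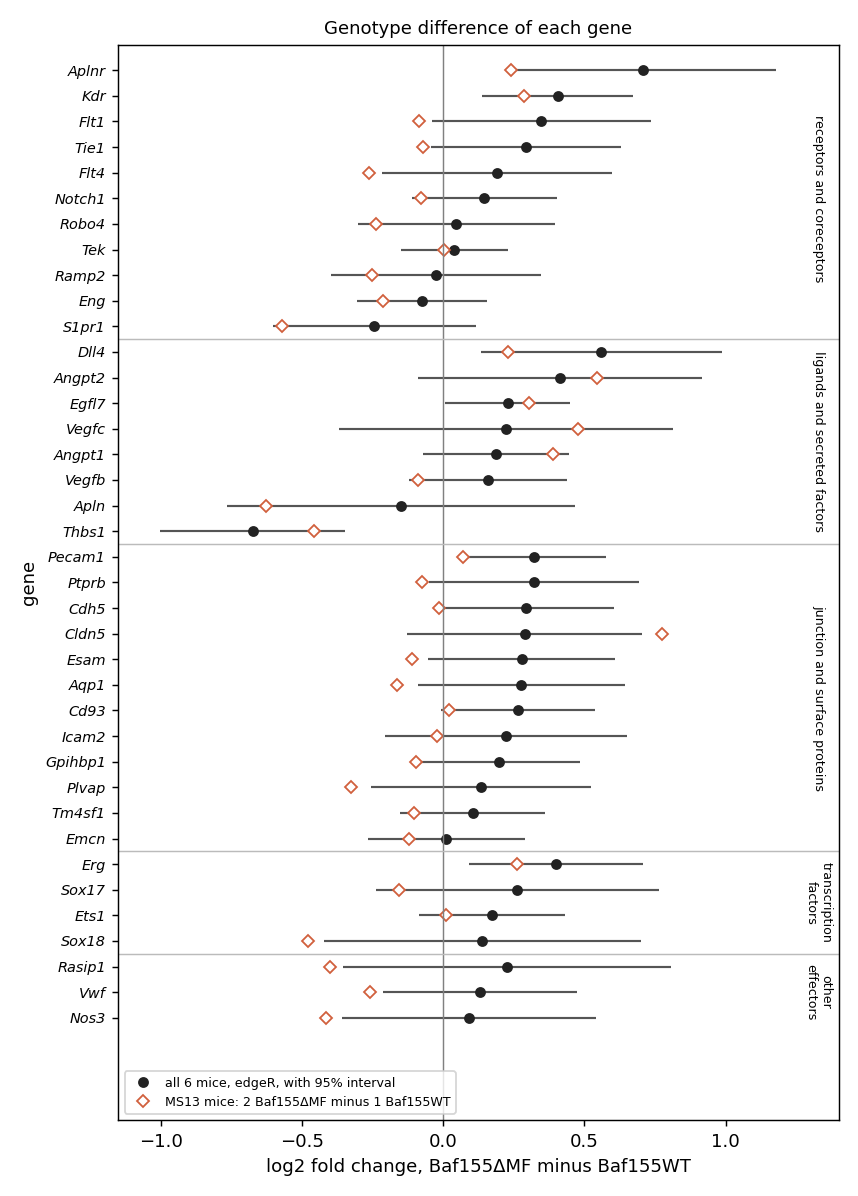
Log2 fold change (Baf155ΔMF minus Baf155WT, log2 scale, x axis) of each of the 38 members, grouped by role; filled points and lines give the estimate and its 95% interval from all 6 mice, and open diamonds give the difference between the 2 Baf155ΔMF mice and the 1 Baf155WT mouse with the prefix MS13. The filled points lie above 0 in 33 of 38 members, whereas the diamonds lie below 0 in 25 of 38.

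Among the receptors, *Kdr*, the main signaling receptor for VEGF-A (chromosome 5, 75932827 to 75978458), was at 49.4 CPM in the MS13 Baf155WT mouse, 40.5 and 42.0 CPM in the MS15 Baf155WT mice, 53.5 and 67.9 CPM in the MS13 Baf155ΔMF mice and 53.0 CPM in the MS14 Baf155ΔMF mouse. All Baf155ΔMF mice were above all Baf155WT mice, with the second MS13 Baf155ΔMF mouse highest. The means were 44.0 ± 4.75 and 58.1 ± 8.48 CPM (SD, n = 3 each), a log2 difference of 0.41 (SE 0.12, 95% interval 0.14 to 0.67) with an adjusted p of 0.601 by edgeR, and within MS13 the difference was 0.29.

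*Aplnr*, the apelin receptor (chromosome 2, 85136225 to 85139923), was at 9.13 CPM in the MS13 Baf155WT mouse and 6.66 and 4.46 CPM in the MS15 Baf155WT mice, against 11.6, 10.1 and 11.2 CPM in the Baf155ΔMF mice. The Baf155ΔMF mice lay close together and the Baf155WT mice were spread over about a 2-fold range, with the MS13 mouse nearest to the Baf155ΔMF mice. The means of 6.75 ± 2.34 and 11 ± 0.812 CPM (SD, n = 3 each) gave the highest log2 fold change of the members, 0.71 (SE 0.21, 95% interval 0.23 to 1.18, adjusted p = 0.601, edgeR), which was 0.24 within MS13.

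*Flt1*, which binds VEGF-A and VEGF-B, was at 44.6 CPM in the MS13 Baf155WT mouse, 25.2 and 30.3 CPM in the MS15 Baf155WT mice and 45.4, 38.9 and 42.6 CPM in the Baf155ΔMF mice. The MS15 Baf155WT mice were below all Baf155ΔMF mice, whereas the MS13 Baf155WT mouse was among them. The log2 fold change was 0.35 (95% interval -0.04 to 0.74) and was -0.08 within MS13. *Tek*, the angiopoietin receptor, had the smallest SE of the members and was at 41.4, 41.2 and 40.1 CPM in Baf155WT muscle and 41.1, 41.7 and 43.3 CPM in Baf155ΔMF muscle. Its log2 fold change was 0.04 (SE 0.086), and the 95% interval of -0.15 to 0.23 left out a 1.5-fold change in either direction (0.0011 within MS13). *Notch1* was at 25.5, 20.4 and 21.9 CPM in Baf155WT muscle and 22.7, 25.5 and 26.5 CPM in Baf155ΔMF muscle, and the genotypes overlapped (log2 fold change 0.15, 95% interval -0.11 to 0.40, and -0.08 within MS13). The other 6 receptors and coreceptors had log2 fold changes of -0.24 (*S1pr1*, the sphingosine-1-phosphate receptor) to 0.29 (*Tie1*, the Tie2 partner receptor), with overlapping genotypes. *Eng*, a TGF-beta coreceptor, had -0.07, *Ramp2*, the adrenomedullin coreceptor, -0.03, *Robo4*, an endothelial guidance receptor, 0.05, and *Flt4* 0.19. In 10 of the 11 receptors the MS13 Baf155WT mouse was above both MS15 Baf155WT mice.

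For the ligands and secreted factors the Baf155WT mice were not ordered as for the receptors: the MS13 Baf155WT mouse was above both MS15 Baf155WT mice in 3 of 8 and below both in 4 of 8, and the median log2 difference within MS13 was 0.27, beside 0.20 from all 6 mice. The difference between the roles was not tested. *Dll4* (chromosome 2, 119325784 to 119335962) was at 5.34, 3.52 and 3.93 CPM in the Baf155WT mice, in the order MS13, MS15, MS15, and at 5.98, 6.65 and 6.08 CPM in the Baf155ΔMF mice, in the order MS13, MS13, MS14, an order kept for the values of the genes that follow. All Baf155ΔMF mice were above all Baf155WT mice, and the gap between the nearest mice of the 2 genotypes was narrow. The log2 fold change was 0.56 (SE 0.19, 95% interval 0.13 to 0.99, adjusted p = 0.601, edgeR), and 0.23 within MS13.

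*Egfl7*, a matrix-bound factor secreted by endothelial cells (chromosome 2, 26580014 to 26593120), was at 30, 31.4 and 32.3 CPM in Baf155WT muscle and 34.1, 40.4 and 35.4 CPM in Baf155ΔMF muscle. The Baf155WT mice were close together, with the MS13 mouse lowest. The log2 fold change was 0.23 (SE 0.10, 95% interval 0.01 to 0.45, adjusted p = 0.617, edgeR), and 0.30 within MS13. Its span holds *Mir126a*, *Mir126b* and parts of other genes, and since the use of strand in counting is not stated, reads from overlapping genes cannot be told apart. The same limit holds for other members that overlap a gene, among them *Dll4*, *Thbs1*, *Angpt1*, *Angpt2*, *Notch1*, *Cdh5* and *Nos3*.

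*Thbs1*, thrombospondin-1, a secreted inhibitor of vessel growth that fibroblasts, platelets and macrophages also make (chromosome 2, 118111876 to 118127133), was the only member with its genotypes apart on the lower side. It was at 45.4, 64.9 and 52.9 CPM in Baf155WT muscle and 28.1, 38.7 and 35.5 CPM in Baf155ΔMF muscle, and each Baf155ΔMF mouse was below each Baf155WT mouse. The means were 54.4 ± 9.84 and 34.1 ± 5.47 CPM (SD, n = 3 each), a log2 fold change of -0.68 (SE 0.15, 95% interval -1.0 to -0.35), with an unadjusted p of 0.000856 and an adjusted p of 0.404 by edgeR. It had the lowest p of the 38 members. Over 16 alternative fits its adjusted p ranged from 0.00244 to 0.999 and was under 0.05 in 2, DESeq2 and the fit without the MS13 Baf155WT mouse, and the within-MS13 difference was -0.46.

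The other 5 ligands had overlapping genotypes. *Vegfb*, a VEGFR1 ligand made by muscle fibers, was at 28.8, 20.7 and 25.3 CPM in Baf155WT muscle and 26.6, 27.5 and 29.1 CPM in Baf155ΔMF muscle (log2 fold change 0.16, 95% interval -0.12 to 0.44, and -0.09 within MS13). *Angpt1*, the Tie2 agonist made mainly by perivascular cells, was at 23.4, 26.5 and 25.5 CPM and at 31.0, 30.5 and 24.4 CPM (0.19, 95% interval -0.07 to 0.45, and 0.39 within MS13). Both MS13 Baf155ΔMF mice were above the range of Baf155WT mice for *Angpt1*, and the MS14 mouse was within it. *Angpt2*, the endothelial antagonist of Tie2, was at 3.01, 2.91 and 3.30 CPM and at 5.23, 3.84 and 3.16 CPM (0.41, 95% interval -0.09 to 0.92, and 0.55 within MS13), with the same 2 mice above the Baf155WT range. *Apln*, apelin, was at 3.60, 2.14 and 2.59 CPM and at 1.82, 2.80 and 2.81 CPM (-0.15, 95% interval -0.77 to 0.47, and -0.63 within MS13), and its interval was the widest of the members. *Vegfc*, the main VEGFR3 ligand, spanned 1.75 to 2.94 CPM and 2.18 to 3.16 CPM, with a log2 fold change of 0.22.

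**Figure D2:**
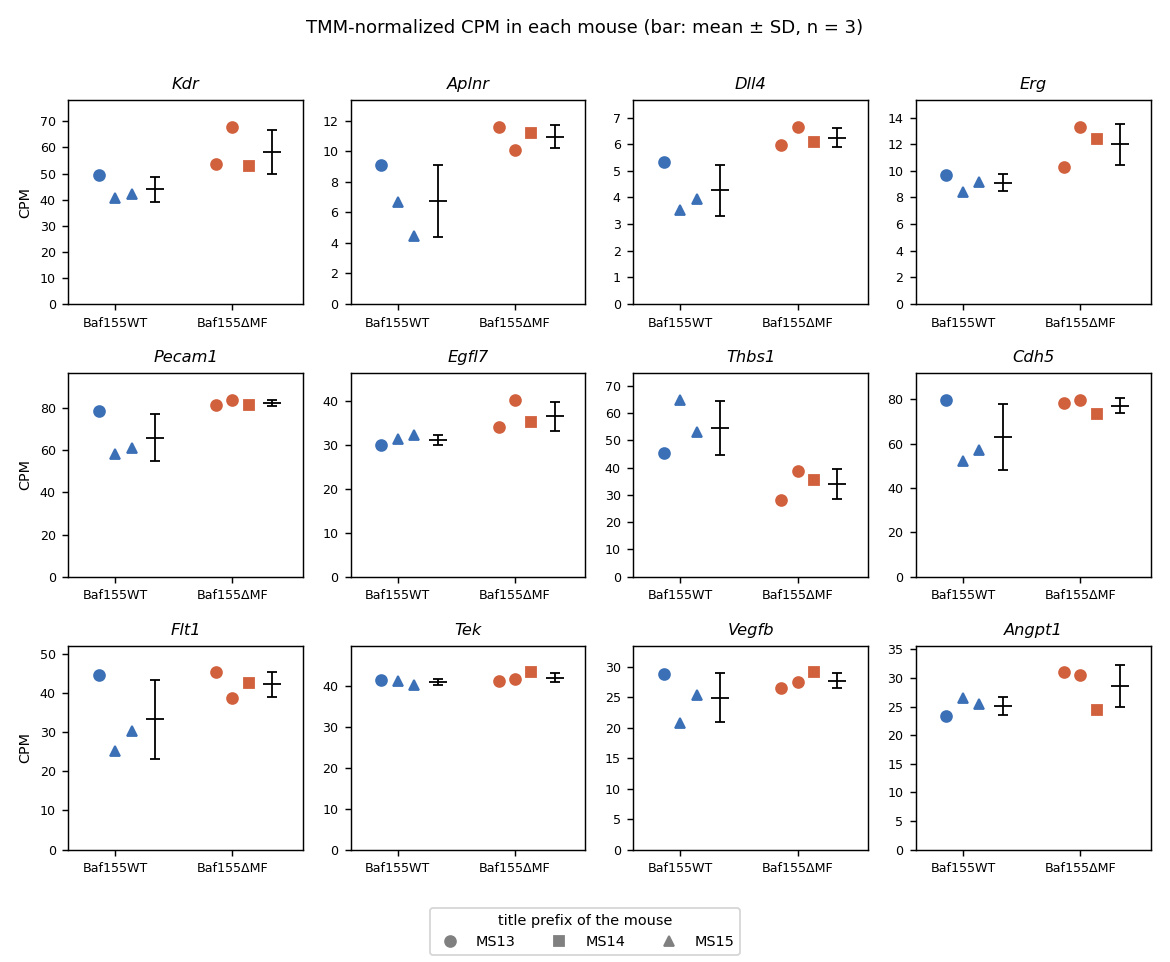
CPM (y axis, from 0) of 12 members in each of the 6 mice by genotype (x axis), with the marker shape giving the title prefix and the bar the mean ± SD of 3 mice. *Thbs1* and the members *Kdr*, *Aplnr*, *Dll4*, *Erg*, *Pecam1* and *Egfl7* have no overlap between genotypes, while in *Cdh5* and *Flt1* the MS13 Baf155WT mouse lies level with the Baf155ΔMF mice and the 2 MS15 mice lie below.

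All 12 junction and surface proteins had a log2 fold change above 0 (median 0.27), and 11 of the 12 had the MS13 Baf155WT mouse above both MS15 Baf155WT mice. *Pecam1* (CD31), the adhesion protein used to mark endothelial cells (chromosome 11, 106654217 to 106750628), was at 78.8, 58.1 and 61.0 CPM in Baf155WT muscle and 81.6, 84.0 and 81.5 CPM in Baf155ΔMF muscle. The Baf155ΔMF mice differed by less than 3 CPM from each other, and the MS13 Baf155WT mouse was just below them. The log2 fold change was 0.32 (SE 0.12, 95% interval 0.07 to 0.58, adjusted p = 0.601, edgeR), and 0.07 within MS13. *Cdh5*, the VE-cadherin of endothelial junctions, was at 79.8, 52.1 and 57.1 CPM and at 78.4, 79.6 and 73.2 CPM, with a log2 fold change of 0.29 (95% interval -0.02 to 0.61) that was -0.01 within MS13. The MS13 Baf155WT mouse was the highest of all 6 mice for *Cdh5*. *Gpihbp1*, which holds lipoprotein lipase on the capillary wall, was at 26.7, 19.6 and 22.0 CPM and at 24.1, 25.9 and 28.2 CPM (log2 fold change 0.20, 95% interval -0.09 to 0.48, and -0.10 within MS13).

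The other 9 surface proteins had overlapping genotypes and log2 fold changes of 0.01 (*Emcn*, endomucin) to 0.32 (*Ptprb*, the phosphatase VE-PTP that acts on Tie2). *Aqp1*, the water channel of capillary endothelium and red cells, spanned 193 to 329 CPM in Baf155WT muscle and 278 to 312 CPM in Baf155ΔMF muscle, with a log2 fold change of 0.28 that was -0.16 within MS13. *Cldn5*, the claudin of endothelial tight junctions, was the exception in the group and was singled out after its values were seen. The MS13 Baf155WT mouse was its lowest, at 6.12 CPM, against 8.88 and 8.48 CPM in the MS15 mice and 9.93, 11.3 and 7.48 CPM in the Baf155ΔMF mice. Its log2 difference within MS13 was 0.77, the highest of the members, beside 0.29 from all 6 mice.

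Of the transcription factors, *Erg*, an ETS factor that maintains endothelial identity (chromosome 16, 95359169 to 95586593), was at 9.72, 8.42 and 9.19 CPM in Baf155WT muscle and 10.3, 13.3 and 12.4 CPM in Baf155ΔMF muscle. The genotypes did not overlap, with the first MS13 Baf155ΔMF mouse only slightly above the MS13 Baf155WT mouse. The log2 fold change was 0.40 (SE 0.14, 95% interval 0.09 to 0.71, adjusted p = 0.601, edgeR), and 0.26 within MS13. *Ets1*, a related ETS factor, and the SOX factors *Sox17* and *Sox18* overlapped between genotypes, with log2 fold changes of 0.17, 0.26 and 0.14. Among the other effectors, *Nos3*, the endothelial nitric oxide synthase, was at 14.3, 8.72 and 8.21 CPM in Baf155WT muscle and 9.61, 11.8 and 11.6 CPM in Baf155ΔMF muscle (log2 fold change 0.09, 95% interval -0.36 to 0.54). Its highest mouse was the MS13 Baf155WT mouse, and the difference was -0.41 within MS13. *Vwf*, the von Willebrand factor, and *Rasip1*, a Ras-interacting protein needed for vessel lumens, had log2 fold changes of 0.13 and 0.23 and were also highest in the MS13 Baf155WT mouse.

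The promoters of the members on the higher side are shown as a description, and these members were picked by their values in the same mice. Whether *Erg* or Notch acts on any of these members was not tested. The RefSeq promoter table (GRCm38.p6) matched 19 of 38 members, with 23 starts, and held 32851 starts in all. The 250 bases before the start are printed 5′ to 3′ on the gene's strand for the 4 of these 6 members with an entry, and capitals mark the letters AGGAAG or CGGAAG (ETS) and TGGGAA (RBPJ, the Notch effector) on either strand, none of which overlap each other here. The first of the 3 starts of *Erg* is the most upstream one.
Kdr, chr5:75978456-75978705, minus strand: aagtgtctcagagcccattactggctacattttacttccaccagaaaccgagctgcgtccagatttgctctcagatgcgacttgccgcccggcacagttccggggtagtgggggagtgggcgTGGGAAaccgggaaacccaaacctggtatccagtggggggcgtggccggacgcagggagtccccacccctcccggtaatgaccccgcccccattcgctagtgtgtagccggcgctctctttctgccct
Dll4, chr2:119325534-119325783, plus strand: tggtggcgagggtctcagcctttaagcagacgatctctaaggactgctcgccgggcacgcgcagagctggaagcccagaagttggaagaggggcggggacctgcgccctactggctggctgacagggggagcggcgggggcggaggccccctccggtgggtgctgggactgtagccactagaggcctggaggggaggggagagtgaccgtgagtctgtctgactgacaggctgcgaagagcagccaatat
Erg, chr16:95586594-95586843, minus strand: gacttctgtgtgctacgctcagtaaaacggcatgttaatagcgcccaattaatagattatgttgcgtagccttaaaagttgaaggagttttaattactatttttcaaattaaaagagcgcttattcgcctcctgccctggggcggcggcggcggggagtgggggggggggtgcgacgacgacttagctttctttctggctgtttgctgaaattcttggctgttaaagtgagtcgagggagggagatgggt
Egfl7, chr2:26580833-26581082, plus strand: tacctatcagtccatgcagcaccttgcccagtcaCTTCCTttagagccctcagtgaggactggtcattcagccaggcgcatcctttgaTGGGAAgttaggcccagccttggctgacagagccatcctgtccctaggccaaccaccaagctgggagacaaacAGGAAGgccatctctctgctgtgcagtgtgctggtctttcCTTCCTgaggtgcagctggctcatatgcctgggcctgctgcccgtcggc
The *Kdr* window held 1 TGGGAA, 128 bases before the start, and no ETS letters. The *Egfl7* window, at the most upstream of 3 starts, held 3 AGGAAG and 1 TGGGAA, while over its 3 starts AGGAAG was in 2 and TGGGAA in 1. The windows of *Dll4* and this *Erg* start held none of the 3 motifs. Another of the 3 *Erg* starts held both AGGAAG and TGGGAA, and the remaining one held none. Over the 23 member starts, AGGAAG was present in 12 (52.2%, against 29.5% of all starts), CGGAAG in 1 (4.35%, against 13.6%) and TGGGAA in 5 (21.7%, against 21.6%). ACGTG, a form of the HIF site core, was in 0 of 23 (16.6% of all starts), and TTCNNNGAA, the STAT site, in 0 of 23 (7.02%). The other form of the HIF core, GCGTG, was not searched, and its letters do occur in the printed *Kdr* window. The 0 of 23 therefore does not show that these windows lack HIF core letters. *Egfl7* and *Erg* each count with 3 starts, both strands were searched, and a match is a description of the letters in the window.

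The order of the mice recurred over the members. The mean log2 CPM of the 38 members was 4.32 in the MS13 Baf155WT mouse, 3.96 and 4.04 in the MS15 Baf155WT mice, 4.23 and 4.31 in the MS13 Baf155ΔMF mice and 4.34 in the MS14 Baf155ΔMF mouse. It was thus low in the 2 MS15 mice and alike in the other 4. The genotype difference was 0.19 on the log2 scale from all 6 mice (4.11 ± 0.19 against 4.29 ± 0.05, SD, n = 3 each), -0.05 within MS13, and the MS13 Baf155WT mouse was 0.33 above the mean of the MS15 Baf155WT mice (all genes -0.03).

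Gene by gene, the MS13 Baf155WT mouse was above both MS15 Baf155WT mice in 31 of 38 members (81.6%, against 37.8% of all genes). Both MS15 Baf155WT mice were below all Baf155ΔMF mice in 25 of 38 members (65.8%, against 19.3% of all genes), and above all of them in 1, *Thbs1*. The MS13 Baf155WT mouse, on the other hand, was above all Baf155ΔMF mice in 15 members (39.5%, against 21.2% of all genes), within their range in 13 (34.2%, against 56.9%) and below all of them in 10 (26.3%, against 21.8%). The lowest of the 6 mice was an MS15 Baf155WT mouse in 28 of 38 members, 18 in the first and 10 in the second (2018 and 2449 of the 12116 genes tested). The MS13 Baf155WT mouse was the highest in 14 members (1682 of all genes). Within MS13 the members' median log2 difference was -0.09 (all genes -0.00065), and the Baf155ΔMF mean was below the Baf155WT mouse in 25 of 38 members (50.2% of all genes). In the 7 members whose genotypes did not overlap, the sign within MS13 is fixed by the lack of overlap.

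**Figure D3:**
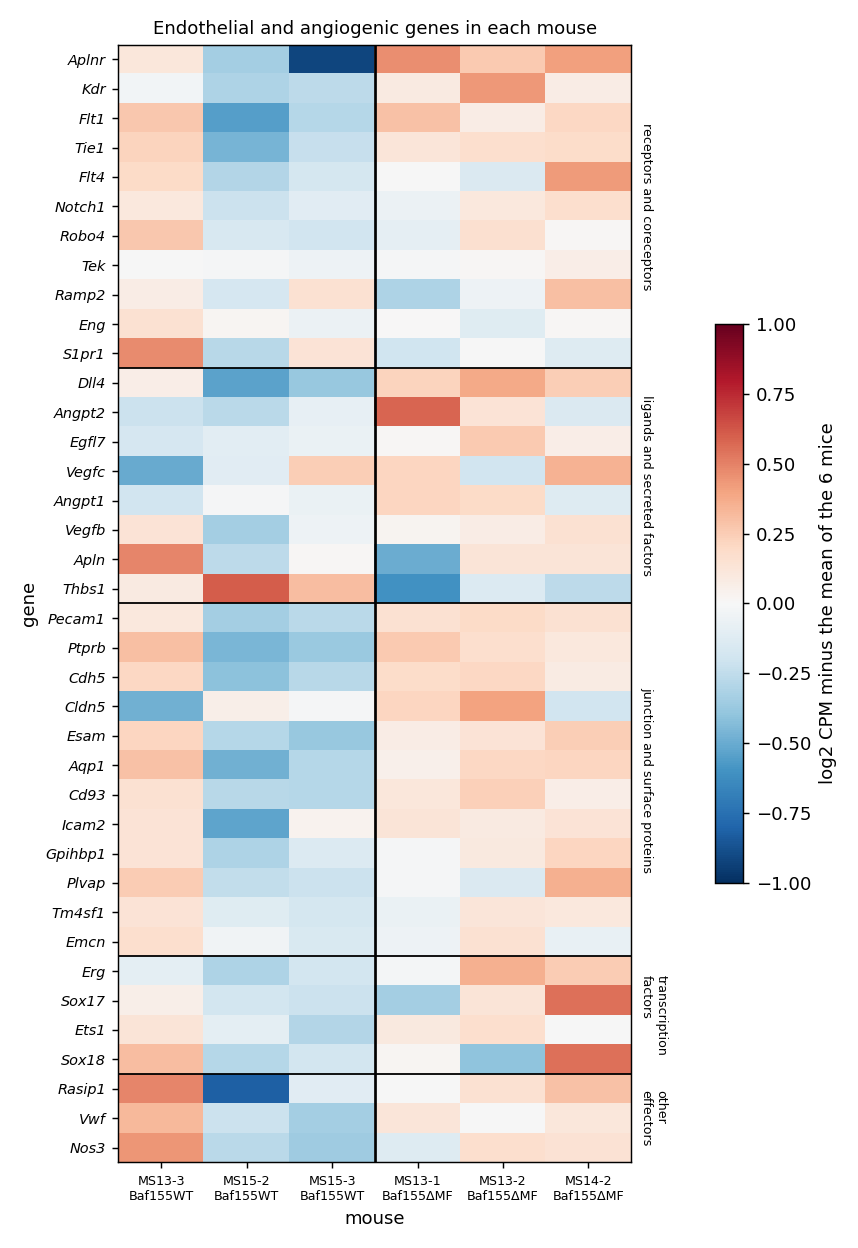
Log2 CPM of each member (rows, ordered by role) in each mouse (columns) minus the mean of the 6 mice, on a color scale from -1 to 1. The 2 columns of the MS15 Baf155WT mice are below the mean in most rows, and the column of the MS13 Baf155WT mouse is closer to the Baf155ΔMF columns.

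Without the MS13 Baf155WT mouse, 12 of 38 members had an adjusted p under 0.05 by edgeR (7.77% of the 12288 genes then tested), 11 of them higher (3.6%) and *Thbs1* lower. The 11 were the receptors *Kdr*, *Flt1*, *Tie1* and *Aplnr*, the ligand *Dll4* and the surface proteins *Pecam1*, *Cdh5*, *Esam*, *Cd93*, *Ptprb* and *Aqp1*, with log2 fold changes of 0.42 (*Cd93*) to 0.97 (*Aplnr*). In that fit all Baf155WT mice were MS15 and all Baf155ΔMF mice were MS13 or MS14, so genotype and prefix cannot be told apart. Without both MS15 Baf155WT mice, 0 of 38 passed, 3 were at an unadjusted p under 0.05 (2.93% of the 12386 genes then tested), and the median log2 fold change was -0.06. When the prefix was added to the model the median was -0.085, 0 members passed by edgeR and 7 were at an unadjusted p under 0.05 (5.08% of all genes), 4 of them higher and 3 lower. Of these 7, only *Kdr*, *Egfl7* and *Thbs1* were also among the 7 from the fit without the prefix. The log2 fold changes of the others from that fit became 0.25 (*Aplnr*), 0.24 (*Dll4*), 0.28 (*Erg*) and 0.071 (*Pecam1*).

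Pairs of a ligand and its receptor, or of an agonist and an antagonist, were compared as the log2 ratio of their CPM in each mouse. The exact two-sided permutation test over 20 assignments of the 6 mice cannot go below 0.1, and 4 ratios were tested. *Dll4* over *Notch1* was -2.21, -2.47 and -2.42 in Baf155WT muscle and -1.89, -1.91 and -2.09 in Baf155ΔMF muscle, a difference of 0.40 with no overlap (exact permutation p = 0.1, 0.2 after Benjamini-Hochberg adjustment). *Apln* over *Aplnr* was -1.30, -1.55 and -0.74 against -2.56, -1.78 and -1.93, a difference of -0.89 with no overlap (exact permutation p = 0.1, adjusted 0.2). In both pairs the receptor or ligand on the higher side, *Aplnr* or *Dll4*, is a member already described. *Angpt2* over *Angpt1* differed by 0.18 (exact permutation p = 0.4, adjusted 0.4), and *Vegfb* over *Flt1* by -0.21 (exact permutation p = 0.3, adjusted 0.4), with overlapping genotypes in both.

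Per kilobase of exon in Baf155WT muscle, *Aqp1* had the highest level of the members, 94.4 ± 27.1 CPM per kb (SD, n = 3). *Vegfb* (15.5 ± 2.53 CPM per kb) and *Cdh5* (15 ± 3.5 CPM per kb) followed and did not differ beyond their spread, as did *S1pr1* (11.4 ± 2.91 CPM per kb) and *Pecam1* (10.6 ± 1.8 CPM per kb). Of the receptors, *Tek* (8.68 ± 0.154 CPM per kb) was above *Kdr* (4.87 ± 0.526 CPM per kb), and *Kdr* was above *Flt1* (2.47 ± 0.741 CPM per kb). The lowest levels were those of *Angpt2* (0.832 ± 0.0553 CPM per kb), *Apln* (0.883 ± 0.236 CPM per kb), *Sox17* (0.945 ± 0.0989 CPM per kb) and *Vegfc* (0.951 ± 0.245 CPM per kb), and neighbors in that order did not differ beyond their spread. The defining endothelial genes *Pecam1*, *Cdh5* and *Kdr* were thus detected in every mouse, with 453 counts or more.

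A further list of 54 angiogenic pathway genes that are not members was set beside them, of which 52 could be tested. None had an adjusted p under 0.05 by edgeR, 7 were higher (3.35% of all genes) and 2 lower (4.6%) at an unadjusted p under 0.05, and the median log2 fold change was 0.12. Without both MS15 Baf155WT mice 1 was at an unadjusted p under 0.05 (2.93% of all genes then tested), and without the MS13 Baf155WT mouse 24 were (23.8%). *Col4a2*, a collagen chain of the capillary basement membrane, was at 141, 118 and 112 CPM in Baf155WT muscle and 152, 146 and 178 CPM in Baf155ΔMF muscle, with no overlap (log2 fold change 0.36, unadjusted p = 0.00865, adjusted p = 0.601, edgeR, and 0.09 within MS13). Among the other genes at an unadjusted p under 0.05, picked after their values were seen, were 2 Notch target genes. *Heyl* was at 7.19, 7.12 and 5.26 CPM in Baf155WT muscle and 11.3, 9.35 and 7.72 CPM in Baf155ΔMF muscle (log2 fold change 0.54), and *Hes1* at 10.5, 11.4 and 10.8 CPM and at 12, 15.5 and 13.4 CPM (0.32), with differences of 0.51 and 0.37 within MS13. In both genes all Baf155ΔMF mice were above all Baf155WT mice. *Hey1*, a further Notch target of the list, overlapped between genotypes at 5.44, 4.28 and 5.62 CPM and at 6.09, 5.40 and 7.72 CPM (0.32, unadjusted p = 0.119, edgeR). The 2 lower genes were *Adm*, adrenomedullin (-0.53), and *Klf4*, a flow-responsive factor (-0.37), also named after their values were seen. No list of Notch targets was tested. *Vegfa*, the principal angiogenic ligand of muscle fibers, also named after its values were seen, was at 190, 174 and 173 CPM and at 182, 163 and 181 CPM, with a log2 fold change of -0.03 (95% interval -0.23 to 0.17).

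The lists of other cell types were read in the same mice. Of 10 leukocyte genes 8 were tested, and these were all lower in Baf155ΔMF muscle at an unadjusted p under 0.05 (4.6% of all genes). The median log2 fold change of the 8 was -0.86, and none passed the adjusted test by edgeR. Their mean log2 CPM was 3.41 in the MS13 Baf155WT mouse, 4.85 and 4.59 in the MS15 Baf155WT mice and 3.35, 3.26 and 3.89 in the Baf155ΔMF mice, so the 2 MS15 mice, which were low in the members, were high in leukocyte genes. Without those mice 0 of the 8 were at an unadjusted p under 0.05, and the median was 0.17. The count was 1 to 3 without any 1 of the MS15 Baf155WT or MS13 Baf155ΔMF mice. It was 3 in the robust fit and 5 by DESeq2, and with the prefix in the model the median was -0.099. *Cd163*, a macrophage receptor, was at 17.5, 30.8 and 30.2 CPM in Baf155WT muscle and 13.3, 13.2 and 18.6 CPM in Baf155ΔMF muscle. *Ptprc* (CD45), the defining leukocyte gene, was at 7.09 CPM in the MS13 Baf155WT mouse, 19.2 and 17.1 CPM in the MS15 Baf155WT mice and 8.44, 7.79 and 7.60 CPM in the Baf155ΔMF mice.

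Fibro-adipogenic genes were ordered alike, with a mean log2 CPM of 6.79, 7.20 and 7.17 in Baf155WT muscle and 6.69, 6.59 and 7.15 in Baf155ΔMF muscle. At an unadjusted p under 0.05, 4 of 8 were lower (4.6% of all genes, median -0.37). That count was 7 without the MS13 Baf155WT mouse (23.8% of all genes then tested). It was 1 without either MS15 Baf155WT mouse or without the first MS13 Baf155ΔMF mouse. Without both MS15 mice the median was 0.064. In the same list *Pi16*, a marker of adventitial fibroblasts, was at 27.1, 42.6 and 37.9 CPM and at 16.8, 20.4 and 27.2 CPM. The log2 fold change was above 0 in 2 of the 8, *Col1a1* (0.36) and *Col3a1* (0.31), with overlapping genotypes. The adipocyte list had 2 of 5 lower (4.6% of all genes), *Adipoq* (adiponectin) at 9.33, 18.2 and 16.6 CPM and at 9.61, 6.65 and 8.30 CPM, and *Retn* (resistin). This count was 4 without the MS13 Baf155WT mouse (23.8% of all genes then tested). It was 3 without the first MS15 Baf155WT mouse or the first MS13 Baf155ΔMF mouse. The erythrocyte list had 3 of 5 lower (4.6% of all genes, median -0.70), with its highest mean, 7.23 log2 CPM, in the first MS15 Baf155WT mouse. Its count was 0 without that mouse, 0 without the first MS13 Baf155ΔMF mouse, 0 in the robust fit, and 5 without the second MS15 Baf155WT mouse or the MS14 Baf155ΔMF mouse. None of these genes passed the adjusted test by edgeR. The part of these cells, of the title prefix and of the 2 MS15 mice in the endothelial differences was not tested.

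Mural cells, lymphatic endothelium and the fibers were read in the same way. Of 10 mural cell genes, 2 were higher at an unadjusted p under 0.05 (3.35% of all genes), and the median log2 fold change was 0.13. They were the pericyte genes *Rgs5* (532 ± 85.5 against 664 ± 84.1 CPM, SD, n = 3 each) and *Kcnj8* (15.7 ± 2.23 against 19.3 ± 1.61 CPM). The genotypes overlapped in both genes, and the difference was 0.18 within MS13 in each. The count was 4 without the MS13 Baf155WT mouse (23.8% of all genes then tested) and 3 without the MS14 Baf155ΔMF mouse. It was 1 without the first and 0 without the second MS15 Baf155WT mouse, and 0 without either MS13 Baf155ΔMF mouse. Without both MS15 mice the median was -0.0096. The 5 lymphatic endothelial genes had a median log2 fold change of -0.34, which was -0.027 without both MS15 mice. At an unadjusted p under 0.05 there were 4 without the MS13 Baf155WT mouse (23.8% of all genes then tested) and 3 without the MS14 Baf155ΔMF mouse. From all 6 mice 1 was lower at that p (4.6% of all genes). This was *Lyve1*, which macrophages also carry, at 10.1, 18.4 and 19.5 CPM in Baf155WT muscle and 5.34, 6.33 and 9.24 CPM in Baf155ΔMF muscle (log2 fold change -1.21, -0.78 within MS13, adjusted p = 0.367 by edgeR, 0.000382 to 0.999 over 16 alternatives). *Prox1*, the factor that defines lymphatic endothelium, was at 3.11, 1.45 and 1.61 CPM and at 2.88, 2.60 and 2.69 CPM. The myofiber list had 1 of 8 higher at an unadjusted p under 0.05 (3.35% of all genes), and the list's median was -0.13. This was *Myh1*, the myosin heavy chain of fast IIx fibers, at 5730, 4030 and 4810 CPM and at 7680, 6340 and 6470 CPM (unadjusted p = 0.00672, adjusted p = 0.601, edgeR). The log2 fold change was below 0 in 5 of the 8. *Ckm*, muscle creatine kinase, was lower with no overlap, at 20700, 24500 and 24400 CPM and at 19400, 20500 and 20600 CPM (-0.20, unadjusted p = 0.145, edgeR). Without the MS13 Baf155WT mouse 4 of the 8 were at an unadjusted p under 0.05 (23.8% of all genes then tested). Without both MS15 mice the list's median was 0.0018.

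**Figure D4:**
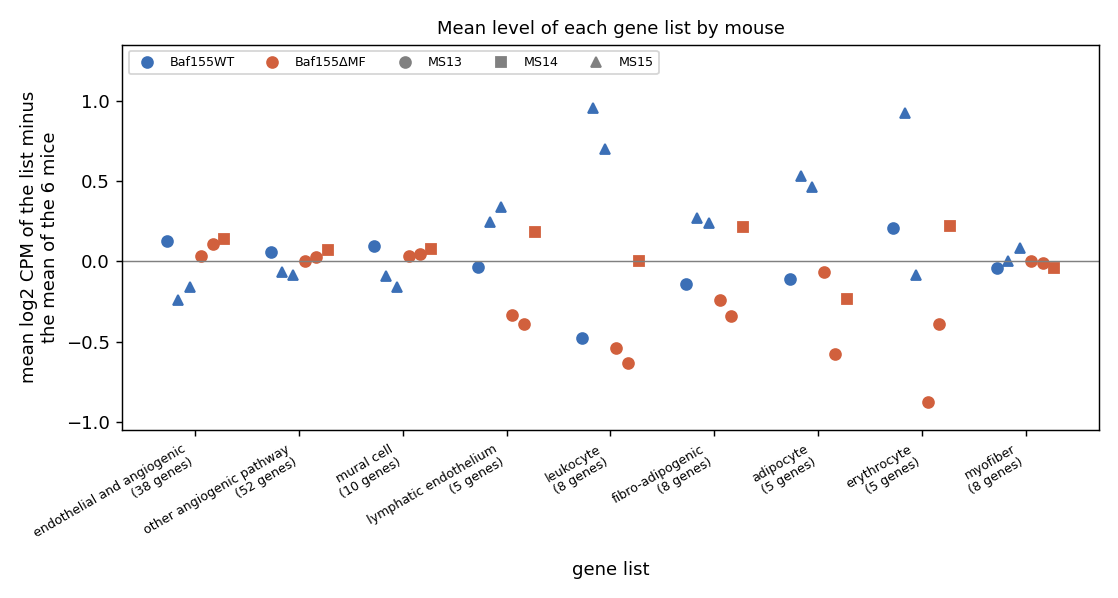
Mean log2 CPM of each of 9 gene lists (x axis) in each mouse minus the mean of the 6 mice (y axis, log2 scale), with the marker color giving the genotype and the marker shape the title prefix. The 38 members are lowest in the 2 MS15 Baf155WT mice, where the leukocyte list is highest, at 4.85 and 4.59 log2 CPM.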

How the data were processed

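Total RNA of 6 libraries was sequenced (TruSeq Stranded Total RNA, Illumina HiSeq). The authors deposited a table of RSEM expected counts per gene. The submitters' processing notes name CASAVA 1.8.2, cutadapt 1.10, Bowtie2 2.2.7, TopHat2 2.1.1, RSEM 1.2.30 and limma, with the builds mm10 and GRCm38; whether strand was used in counting is not given in the sources used here. The expected counts were rounded to whole numbers (2919 of 20632 genes had a fractional estimate in at least 1 mouse, as did 4 members) and tested with edgeR 4.0.16 in R 4.3.3 (filterByExpr with a minimum count of 10 and a total of 15, TMM, quasi-likelihood F test, Benjamini-Hochberg adjustment over 12116 genes, threshold 0.05). The common biological coefficient of variation was 0.111, and log2 CPM had a prior count of 2. The steps were tested on simulated data.

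Groups came from the genotype labels. The members and lists were chosen with earlier results of these data known, and the title prefix was examined with them known. Members were described mouse by mouse if their unadjusted p was under 0.05, if genotypes did not overlap or if they were among 15 core genes (*Pecam1*, *Cdh5*, *Kdr*, *Flt1*, *Tek*, *Erg*, *Vegfb*, *Angpt1*, *Angpt2*, *Notch1*, *Dll4*, *Apln*, *Aplnr*, *Nos3* and *Gpihbp1*), and the others by their range; genes of other lists were named if their unadjusted p was under 0.01 (at most 5 a list) or if they define a cell type. Alternatives were RLE, upper-quartile and library-size scaling, no or a stricter filter, a robust fit, the prefix as a covariate, DESeq2 1.42.0, limma-voom (limma 3.58.1), each mouse left out and, chosen after seeing the data, both MS15 Baf155WT mice left out. Gene positions and exon lengths were from GENCODE on GRCm38, and promoters from RefSeq (GRCm38.p6).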

Additional observations from a re-analysis of the deposited data

How the results depend on the processing

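The 6 mice limit these results: with 3 mice per genotype the interval of a member's fold change was wide, and lone mice in a fit were assumed to vary like the others. No paired analysis was possible because the replicate numbers used here follow accession order and the numbers in the titles have fewer than 2 in common between the genotypes; the fit with the title prefix is given instead. The genes past the threshold, 3 in all, became 17 without the filter, 16 with the prefix as a covariate, 22 by DESeq2, 5 by limma-voom, 16 without both MS15 Baf155WT mice and 0 to 955 when 1 mouse was left out (955 without the MS13 Baf155WT mouse, 7 without the second MS15 Baf155WT mouse, 1 without the first MS13 Baf155ΔMF mouse). With 0 genes past it, 451 were at an unadjusted p under 0.05 without the first MS15 Baf155WT mouse and 568 without the second MS13 Baf155ΔMF mouse. The members past it, 0, became 1 by DESeq2 and 0 to 12 when 1 mouse was left out. The members at an unadjusted p under 0.05, 7, became 11 without the filter (share of all genes not given) and 3 to 19 when 1 mouse was left out. They were 19 without the MS13 Baf155WT mouse (23.8% of all genes then tested). They were 4 without the first MS15 Baf155WT mouse (451 of all genes then tested) and 3 without the second MS13 Baf155ΔMF mouse (568 of all genes then tested). For the other pathway genes the count of 9 became 3 with the prefix, 1 without both MS15 mice and 1 to 24 when 1 mouse was left out (24 without the MS13 Baf155WT mouse, 5 and 1 without the first and the second MS15 Baf155WT mouse, 4 without the first MS13 Baf155ΔMF mouse). The cause of these shifts was not tested.

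The members' median log2 fold change of 0.21 became -0.085 with the prefix and -0.059 without both MS15 mice, and was 0.12 (without the first MS15 Baf155WT mouse) to 0.34 (without the MS13 Baf155WT mouse) when 1 mouse was left out; that of the pathway genes, 0.12, became -0.050 and -0.0015, and was 0.041 (without the MS14 Baf155ΔMF mouse) to 0.16. The difference in the members' mean log2 CPM, 0.19, became -0.033 without both MS15 mice and was 0.12 to 0.30 when 1 mouse was left out. Leaving out 1 mouse gave differences of 0.053 to 0.26 for *Angpt2* over *Angpt1*, -0.33 to -0.13 for *Vegfb* over *Flt1*, -1.06 to -0.65 for *Apln* over *Aplnr* and 0.35 to 0.48 for *Dll4* over *Notch1*.

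Of 608 values of a member under an alternative, 533 kept the direction and side of the threshold, 13 kept the direction and passed the threshold, and 62, in 25 members, reversed. With the prefix as a covariate, the genotype difference comes from the MS13 mice alone. That fit and the fit without both MS15 mice therefore rest on the same 1 Baf155WT mouse. With upper-quartile scaling *Emcn* was at -0.0027. With library size only, *Tek* was at -0.023, *Robo4* at -0.013 and *Emcn* at -0.051. With the prefix as a covariate, the log2 fold change was -0.082 (*Flt1*), -0.27 (*Flt4*), -0.073 (*Tie1*), -0.076 (*Notch1*), -0.24 (*Robo4*), -0.088 (*Vegfb*), -0.014 (*Cdh5*), -0.11 (*Esam*), -0.024 (*Icam2*), -0.12 (*Emcn*), -0.33 (*Plvap*), -0.076 (*Ptprb*), -0.10 (*Tm4sf1*), -0.096 (*Gpihbp1*), -0.16 (*Aqp1*), -0.14 (*Sox17*), -0.48 (*Sox18*), -0.26 (*Vwf*), -0.41 (*Nos3*) and -0.40 (*Rasip1*). Without both MS15 mice it was -0.079 (*Flt1*), -0.092 (*Flt4*), -0.063 (*Tie1*), -0.032 (*Notch1*), -0.25 (*Robo4*), -0.055 (*Vegfb*), -0.051 (*Cdh5*), -0.065 (*Esam*), -0.018 (*Icam2*), -0.16 (*Emcn*), -0.18 (*Plvap*), -0.017 (*Cd93*), -0.11 (*Ptprb*), -0.080 (*Tm4sf1*), -0.039 (*Gpihbp1*), -0.13 (*Aqp1*), -0.21 (*Sox18*), -0.035 (*Ets1*), -0.24 (*Vwf*), -0.38 (*Nos3*) and -0.33 (*Rasip1*). When 1 mouse was left out it ranged from -0.19 to 0.11 (*Ramp2*), from -0.31 to 0.071 (*Apln*), from -0.036 to 0.21 (*Robo4*), from -0.065 to 0.10 (*Emcn*), from -0.050 to 0.38 (*Nos3*), from -0.056 to 0.59 (*Rasip1*), from -0.017 to 0.31 (*Plvap*) and from -0.14 to 0.34 (*Sox18*).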

Other observations

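Of the 38 members, 8 lie on chromosome 2, which holds 7.92% of the genes tested. Of the 7 members whose genotypes did not overlap, 4 are among them, *Aplnr*, *Dll4* and *Egfl7* on the higher side and *Thbs1* on the lower. How many of all non-overlapping genes lie on chromosome 2 was not counted, and a link to position was not tested. Among the lists not yet described, satellite cell genes had 0 of 4 at an unadjusted p under 0.05 by edgeR (median log2 fold change -0.04). Schwann cell genes had 0 of 5 (0.04) and slow myofiber genes 0 of 6 (-0.01), against 7.95% of all genes. Tenocyte genes had 1 of 5 lower (4.6% of all genes, median -0.14). None of these genes passed the adjusted test.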
